A study of Mus musculus with 8 samples.

Results

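The tripartite motif (TRIM) genes were followed in mouse tibialis anterior (TA) muscle after knockdown of *Uba1*, the E1 enzyme that activates ubiquitin for most ubiquitin ligases. The genes were taken by name, as every symbol that begins with Trim and a digit, without pseudogenes and without 4 ligases best known from muscle (*Trim63*, *Trim54*, *Trim55* and *Trim32*). This left 64 of the 41709 genes listed. TRIM genes that carry another name, such as *Pml* and *Mid1*, are not among the 64.

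The mRNA of 8 TA muscles of 3-month-old male C57BL/6J mice was measured by RNA-seq, 7 days after siRNA electroporation. In each of the 4 mice, one TA muscle received a pool of non-targeting siRNAs (siNT, the control) and the contralateral TA a pool of siRNAs against *Uba1* (siUBA1), so that both groups share the injection and the electroporation. The labels mark every siNT muscle as right and every siUBA1 muscle as left, and leg and siRNA cannot be told apart. The treatment tags of siUBA1 replicates 2, 3 and 4 name UBA2, UBA3 and UBA4, whereas all titles name UBA1, and the titles were followed. Muscles and mice are numbered 1 to 4 here by the replicate numbers of the sample descriptions, not by the mouse numbers in the titles.

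Most TRIM proteins have an N-terminal RING domain, 1 or 2 B-boxes and a coiled coil, and act as E3 ubiquitin ligases through the RING. They take ubiquitin from E2 enzymes, which in turn are charged by UBA1. Many members are transcribed in response to interferon and act in antiviral defense, some of them by ubiquitinating or binding components of RNA and DNA sensing. Others work in chromatin, on microtubules or at membranes, and *Trim72* (also called MG53) repairs the sarcolemma of muscle fibers.

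Genes that respond to interferon often carry an interferon-stimulated response element (ISRE) near their start, and its letters were looked for in the TRIM genes. The core letters GAAANNGAAA, or TTTCNNTTTC on the other strand, were searched from 250 bases before to 50 bases after each RefSeq start. Of the 50 TRIM genes in the RefSeq promoter table, 9 held a match, against 3.99% of all 27025 genes in the table (3.44% of its 32851 promoters). These 9 were *Trim2*, *Trim5*, *Trim12a*, *Trim12c*, *Trim21*, *Trim26*, *Trim30a*, *Trim30d* and *Trim34a*. The windows of 30 bases below are shown because the 4 TRIM mRNAs whose difference was past an unadjusted p of 0.05 with every scaling, and 3 other interferon-linked members, hold them. Of the 4, *Trim21* was tested only through its siUBA1 muscles. Letters that match the core are in capitals, each window reads 5′ to 3′ on the strand of its gene, and overlapping matches run together.
Trim21: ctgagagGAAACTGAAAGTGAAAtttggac
Trim34a: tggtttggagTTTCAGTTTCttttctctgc
Trim12a: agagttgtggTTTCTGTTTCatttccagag
Trim12c: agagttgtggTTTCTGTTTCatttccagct
Trim30a: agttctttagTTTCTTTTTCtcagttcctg
Trim30d: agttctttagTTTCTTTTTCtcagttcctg
Trim26: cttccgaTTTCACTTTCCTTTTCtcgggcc

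On GRCm39 the *Trim21* window lies at chr7:102214654-102214683 (minus strand), in an exon, with matches that begin at bases 14 and 20 of the RefSeq transcript. The windows of *Trim34a* at chr7:103893664-103893693 (plus strand) and *Trim12a* at chr7:103964673-103964702 (minus strand) also lie in exons, and both matches begin at base 11. In *Trim12c* the window is at chr7:104002566-104002595 (minus strand), its match begins 29 bases before the RefSeq start, and the window lies within an exon of the GENCODE annotation. The windows of *Trim30a* (at the more upstream of its starts) at chr7:104114417-104114446 and *Trim30d* at chr7:104157078-104157107 (both minus strand) have the same letters, the first outside the annotated gene and the second in an exon. The *Trim26* window lies upstream of its gene, at chr17:37147871-37147900 (plus strand). The window of *Trim5* has the same letters as that of *Trim12a*, and its promoter sequence matched chromosome 7 at 2 places. A match of letters is a description and not a measured site.

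Of the 12 TRIM genes on chromosome 7 between *Trim21* and *Trim30d* (chr7:102207128-104157107, 1950 kb), 7 held the ISRE core. By contrast, the core of the interferon-gamma element, TTCNNNGAA, which reads the same on both strands, was found in 6 of the 50 members, against 9.55% of all genes and 8.3% of all promoters. None of those 6 was expressed highly enough to be tested. The 14 members without an entry in the promoter table are *Trim3*, *Trim8*, *Trim11*, *Trim14*, *Trim16*, *Trim17*, *Trim29*, *Trim33*, *Trim35*, *Trim36*, *Trim43b*, *Trim43c*, *Trim50* and *Trim65*.

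*Uba1* mRNA was at 60.6 ± 2.11 TPM (TPM, a level corrected for transcript length) in siNT muscles and at 15.9 ± 6.83 TPM in siUBA1 muscles (SD, n = 4 each). It was lower in 4 of 4 mice, with a log2FC of -1.98 (SE 0.290, Benjamini-Hochberg adjusted p = 0.0527 by limma), which is not past 0.05. Blocking by mouse, the adjusted p was 0.0278 (limma), which is past it. An exact permutation test, two-sided, gave p = 0.0286, and no smaller p can arise from 2 groups of 4. Muscle markers were high in all 8 muscles, and the sum of 9 of them was between 107353 and 153373 TPM. Transcripts of the mitochondrial genome took 39.9% to 50.3% of the TPM. The median log2FC of all 11530 genes tested was 0.11, and median-ratio scaling brought it to 0.0016, a shift of 0.104. Directions of small differences are therefore given with both scalings.

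To place the family in this muscle, the levels were first compared between members. *Trim72* had the highest level, at 152 ± 9.34 TPM in siNT and 145 ± 30.2 TPM in siUBA1 muscles (SD, n = 4 each). *Trim35* followed at 70.6 ± 10.6 and 62.3 ± 18.3 TPM. These 2 mRNAs took 52.6% ± 1.47 of the summed TPM of the 64 genes in siNT and 48.0% ± 3.12 in siUBA1 muscles. Together, the 64 genes summed to 423 ± 26.9 TPM in siNT and 430 ± 73.3 TPM in siUBA1 muscles, less than the 4 muscle ligases left out (675 ± 82.1 and 658 ± 34.1 TPM).

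Below *Trim35* the levels were close together. *Trim16*, which lacks a RING and acts in the response to damaged lysosomes, was at 25.5 TPM over all muscles. *Trim28*, the corepressor of KRAB zinc finger proteins, was at 19.1 TPM, *Trim41* at 16.6, *Trim7*, a partner of glycogenin, at 15.9, and *Trim8* and *Trim44* at 13.8 TPM each. From *Trim41* to *Trim44*, neighbors in this order overlapped in their values. The mean was at 10 TPM or more for 10 members and at 5 TPM or more for 17.

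**Figure D1:**
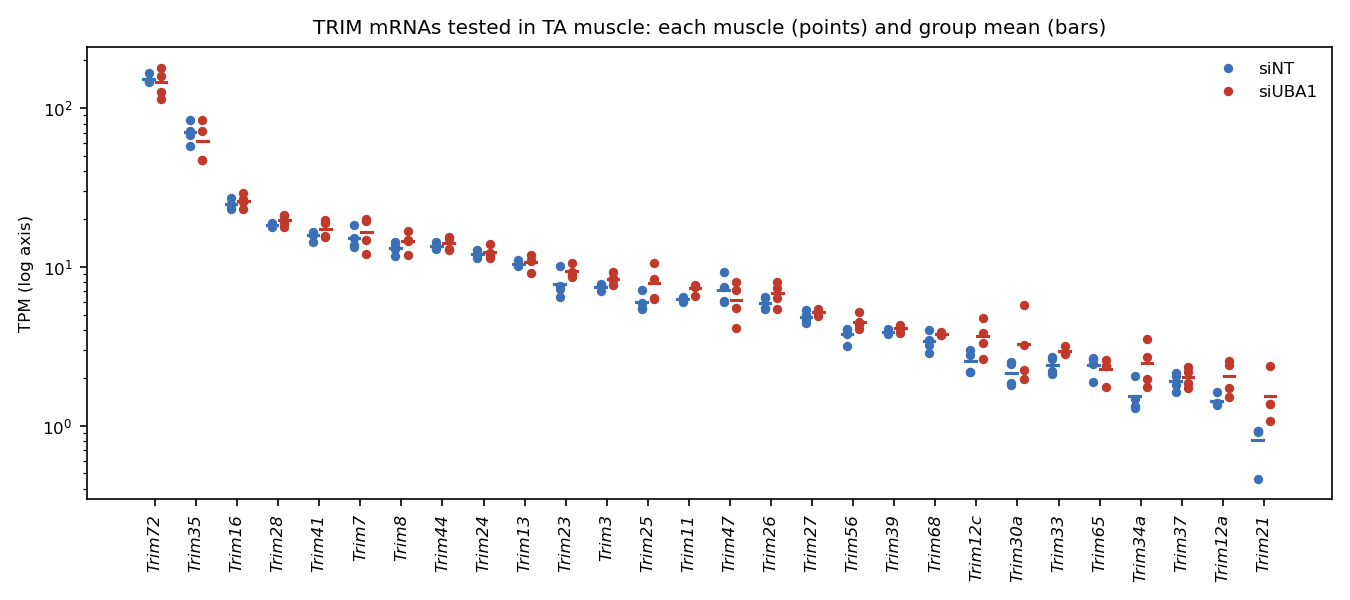
Level of each of the 28 TRIM mRNAs tested, in TPM on a log axis, with siNT muscles in blue and siUBA1 muscles in red. Each point is 1 muscle and each bar the mean of 4 muscles, and *Trim72* and *Trim35* stand above the other members in both groups.

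The other end of the family was silent or nearly so. Of the 64 genes, 12 were listed at 0 in all 8 muscles, among them *Trim31*, *Trim40*, *Trim58* and 2 members of the *Trim43* group. Another 24 were above 0 in at least 1 muscle but did not reach 1 TPM in 4 muscles, the level required for testing. The highest of these were *Trim30d* at 1.1, *Trim45* at 0.763 and *Trim62* at 0.559 TPM. Among the 64, the 4 members listed with a microtubule-binding COS box were all below the filter. *Trim46*, *Trim67*, *Trim36* and *Trim9* were at 0.344, 0.267, 0.130 and 0.00785 TPM. This list did not cover the muscle ligases left out or TRIM genes with other names.

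Next, the effect of *Uba1* siRNAs was tested for the 28 TRIM mRNAs above the filter, with limma on log2(TPM + 1) over all genes. Because of the added 1, log2FC of mRNAs near 1 TPM are smaller than the log2 of their ratio. No TRIM mRNA passed an adjusted p of 0.05, as against 0.0260% of all genes tested (3 of 11530). The Kruskal-Wallis test, applied gene by gene, gave no member either after adjustment, and 6 higher before it, beside 17.5% of all genes. At an unadjusted p under 0.05 by limma, 7 of the 28 were higher in siUBA1 muscles and 0 lower, whereas 16.0% of all genes were higher and 1.98% lower. In whole muscle, fewer cells of a type and less RNA per cell cannot be told apart.

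The 7 were *Trim21*, *Trim11*, *Trim34a*, *Trim33*, *Trim12c*, *Trim12a* and *Trim56*. *Trim21* reached 1 TPM in all siUBA1 muscles and in no siNT muscle, so it was tested only through the group where it was higher, and without it the count is 6 of 27. Blocking by mouse, the count was 10 of 28, beside 22.4% of all genes. Without siUBA1 replicate 3 it was 1 (*Trim11*), beside 10.5% of all genes tested in that fit. Without siNT replicate 2 it was 2, beside 10.1%, and without siUBA1 replicate 1 it was 3, beside 12.4%. The log2FC without siUBA1 replicate 3 were smaller but of the same sign, for example 0.30 for *Trim34a*, 0.27 for *Trim12c*, 0.23 for *Trim12a* and 0.19 for *Trim33*, whereas *Trim21* no longer met the filter. With median-ratio scaling, *Trim21*, *Trim34a*, *Trim12a* and *Trim12c* were higher at an unadjusted p under 0.05 and 0 members were lower, beside 4.42% of all genes higher and 6.18% lower. Without *Trim21* that is 3 of 27. All 4 lie in the stretch of chromosome 7 described above, which holds 6 of the 28 tested members and whose edge is *Trim21* itself. Of the 28 log2FC, 24 were above 0, beside 81.8% of all genes, but with median-ratio scaling 15 were, beside 50.7% of all genes. The log2FC ranged from -0.21 to 0.48, and the median was 0.13 beside 0.11 for all genes.

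**Figure D2:**
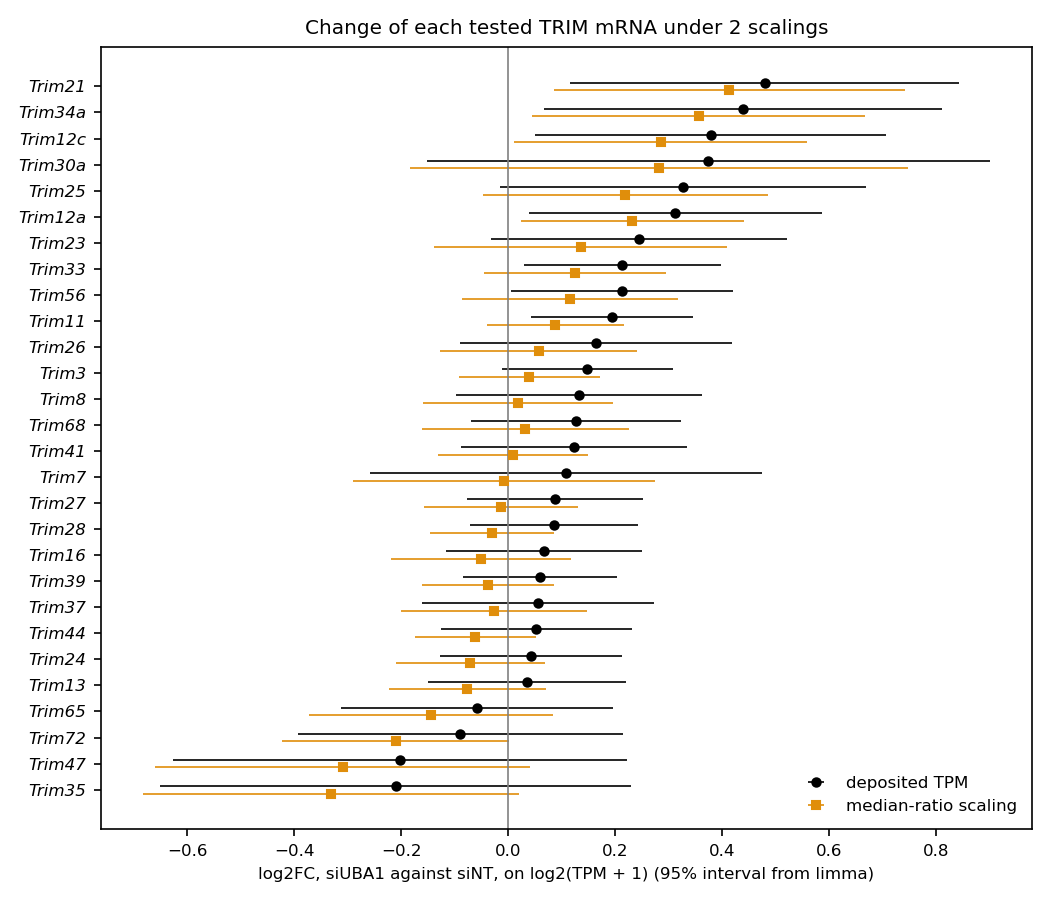
The log2FC of each tested TRIM mRNA on log2(TPM + 1), siUBA1 against siNT, with its 95% interval from limma, from the deposited TPM (black) and after median-ratio scaling (orange). The intervals of *Trim21*, *Trim34a*, *Trim12c* and *Trim12a* lie above 0 with both, while *Trim7* and members listed under it down to *Trim13* are above 0 with the deposited TPM and below 0 with median-ratio scaling.

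The members linked to interferon and antiviral defense are described first. *Trim21* encodes a cytosolic receptor for antibody-coated particles. Its level was 0.922, 0.922, 0.918 and 0.464 TPM in siNT replicates 1 to 4 and 1.37, 1.07, 2.38 and 1.36 TPM in siUBA1 replicates 1 to 4. The siUBA1 muscle was higher in 4 of 4 mice. The log2FC was 0.48 (SE 0.161, unadjusted p = 0.0151, adjusted p = 0.196 from limma), and 0.41 with median-ratio scaling. Because *Trim21* passed the filter only through its siUBA1 muscles, the lack of overlap between its groups is set by the filter.

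*Trim34a*, a relative of the retroviral restriction factor TRIM5 of primates, was also highest in siUBA1 replicate 3. It was at 1.30, 1.32, 2.06 and 1.46 TPM in the siNT replicates and at 2.69, 1.75, 3.52 and 1.95 TPM in the siUBA1 replicates. Each siUBA1 muscle was above the contralateral siNT muscle, although the groups overlapped. The log2FC was 0.44 (SE 0.165, adjusted p = 0.225 from limma) and 0.36 with median-ratio scaling. Blocking by mouse gave an adjusted p of 0.0884 (limma), the lowest of any member under any setting tried. *Trim34a* shared 18.4% of the 100-base windows of its transcripts with *Trim34b*, and its reads may be split between them. With all other genes together it shared 33.6%, and 23.1% of its exon bases overlap *Gm47248* on the opposite strand.

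*Trim12a* and *Trim12c* are among the mouse relatives of TRIM5, as is mouse *Trim5* (0.387 TPM, not tested). *Trim12a* was at 1.39, 1.34, 1.62 and 1.39 TPM in siNT and at 2.41, 1.52, 2.56 and 1.73 TPM in siUBA1 replicates. *Trim12c* was at 3.02, 2.19, 2.79 and 2.17 TPM in siNT and at 3.86, 3.32, 4.77 and 2.64 TPM in siUBA1 replicates. Both were higher in 4 of 4 mice with overlapping groups. The log2FC of *Trim12a* was 0.31 (SE 0.121, adjusted p = 0.237 from limma) and that of *Trim12c* 0.38 (SE 0.146, adjusted p = 0.232), or 0.23 and 0.29 with median-ratio scaling. *Trim12c* shared 12.8% and *Trim12a* 3.29% of transcript windows with other TRIM genes, among them *Trim5*, so their levels are less certain than those of genes without copies.

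*Trim30a*, which restrains NF-kB signaling from Toll-like receptors, was set by 1 muscle. It was at 1.80, 1.85, 2.52 and 2.43 TPM in siNT and at 3.21, 1.96, 5.73 and 2.24 TPM in siUBA1 replicates. The highest value was that of siUBA1 replicate 3, and mouse 4 was lower with *Uba1* siRNAs. The log2FC was 0.37 (SE 0.234, adjusted p = 0.395 from limma) and became 0.13 without that muscle. Its neighbor *Trim30d*, not tested, showed the same muscle at 2.74 TPM, whereas its other 7 muscles were between 0.619 and 1.01 TPM.

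*Trim25*, the ligase of the RNA sensor RIG-I, was at 5.53, 5.88, 7.12 and 5.41 TPM in siNT and at 8.34, 6.36, 10.5 and 6.30 TPM in siUBA1 replicates. It was higher in 4 of 4 mice, with a log2FC of 0.33 (SE 0.152, adjusted p = 0.294 from limma) and of 0.22 with median-ratio scaling. Without siUBA1 replicate 3 it was 0.19. *Trim56*, which acts in DNA and RNA sensing, was at 4.09, 3.19, 3.77 and 4.02 TPM in siNT and at 4.09, 4.32, 5.20 and 4.47 TPM in siUBA1 replicates. Its groups did not overlap with the deposited TPM but did after median-ratio scaling, and the log2FC of 0.21 (SE 0.0919, adjusted p = 0.267 from limma) became 0.12.

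The other 3 tested members of this group differed less. *Trim26*, a regulator of IRF3 signaling, was at 5.94 ± 0.549 TPM in siNT and 6.82 ± 1.15 TPM in siUBA1 muscles (SD, n = 4 each). *Trim68* was at 3.40 ± 0.476 and 3.78 ± 0.0899 TPM. *Trim65*, the ligase of the RNA sensor MDA5, was at 2.41 ± 0.370 TPM in siNT and 2.27 ± 0.360 TPM in siUBA1 muscles and was lower in each of the 4 mice, though by little. Of the 10 tested members of the group, 9 had a log2FC above 0 with and without median-ratio scaling, the exception being *Trim65*. Their median log2FC was 0.32, or 0.23 with median-ratio scaling. Without *Trim21*, 8 of 9 were above 0 with either, and the medians were 0.31 and 0.22. Without siUBA1 replicate 3 the median of these 9 was 0.16, beside 0.08 for all genes in that fit. By comparison, 15 of the 18 tested members outside the group were above 0, and 6 with median-ratio scaling. Of all genes, 81.8% were above 0, and 50.7% with median-ratio scaling. The group was chosen with earlier results of these data known, so its contrast with the other members is a description and not a test.

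**Figure D3:**
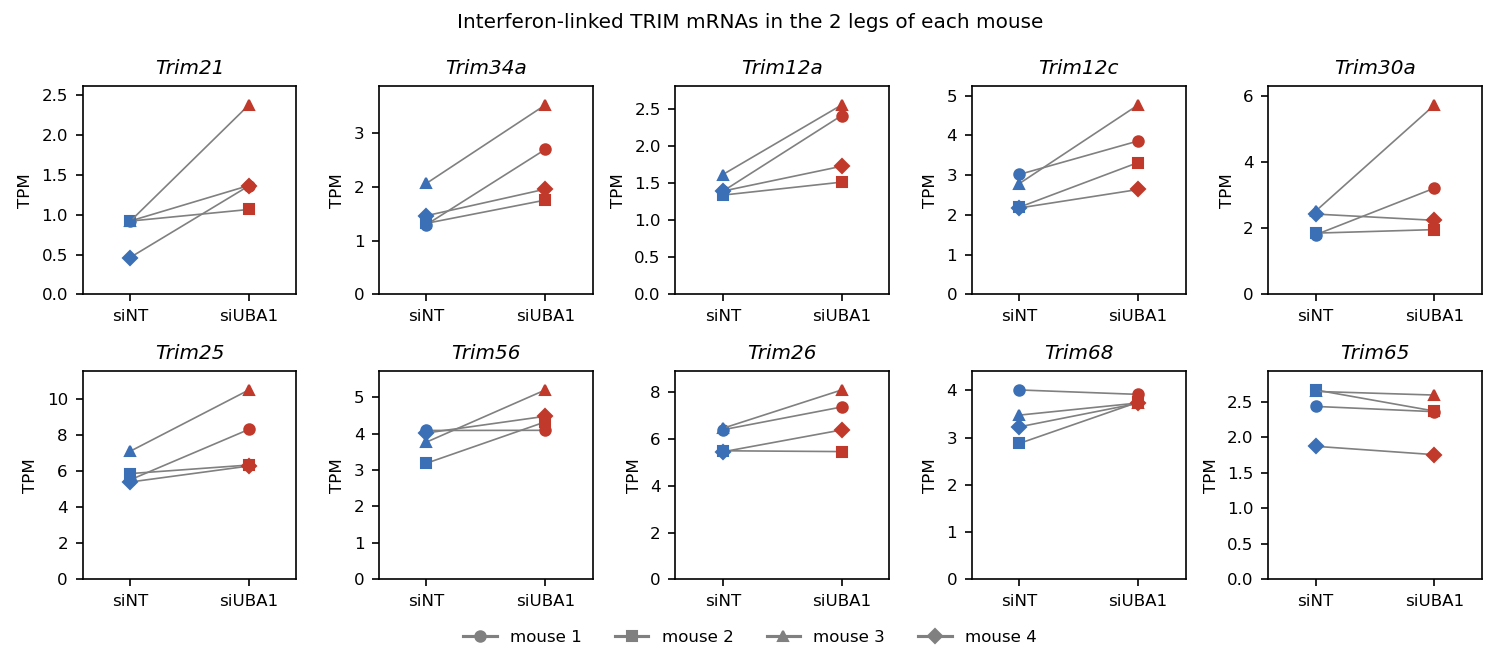
Level in TPM of the 10 tested interferon-linked TRIM mRNAs, with siNT muscles in blue and siUBA1 muscles in red, and a line between the contralateral muscles of each mouse. The siUBA1 muscle of mouse 3 (red triangle) is the highest of the 8 muscles for 8 of the 10, and 6 of the 10 are higher with siUBA1 in all 4 mice (5 of 9 without *Trim21*, and 32.2% of all genes).

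The levels were next compared between muscles. Of the 28 tested TRIM mRNAs, 14 were highest in siUBA1 replicate 3, as were 34.3% of all genes, and of the 10 interferon-linked ones 8 were. The summed level of the 18 interferon-linked TRIM genes was 53.8 TPM in siUBA1 replicate 3 and 42.0 TPM in siUBA1 replicate 1. In siUBA1 replicates 2 and 4 it was 33.6 and 34.1 TPM, within the range of 29.2 to 35.8 TPM of the siNT muscles.

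Genes of interferon signaling and response (20 in the list, 17 tested) showed the same muscle, as 15 of the 17 were highest in siUBA1 replicate 3. *Ifit3*, an interferon-induced antiviral gene, was at 40.0 TPM there, whereas its other muscles were between 2.63 and 9.31 TPM. *Isg15*, a ubiquitin-like modifier, was at 25.4 TPM there, beside 3.55 and 3.74 TPM in siUBA1 replicates 2 and 4, both below the siNT minimum of 5.24 TPM. Only *Mavs*, the mitochondrial adaptor of RNA sensing, was past an unadjusted p of 0.05 (24.8 TPM in siNT and 27.7 TPM in siUBA1 muscles, log2FC 0.15, adjusted p = 0.217 from limma). With median-ratio scaling 0 of the 17 were past it. Of all genes, 16.0% were higher past it in the first fit and 4.42% with median-ratio scaling. Blocking by mouse, 5 of the 17 were higher past it, beside 22.4% of all genes, and with the block and median-ratio scaling 2 were (*Ifit3* and *Usp18*, a protease that removes ISG15), beside 6.96%. All 17 were above 0 by log2FC, and 14 with median-ratio scaling, beside the same 81.8% and 50.7% of all genes.

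Summed markers of leukocytes and of fibroblasts were highest in the same muscle. The summed level of 8 leukocyte markers was 350 TPM in siUBA1 replicate 3, 329 TPM in siNT replicate 3 and 241 TPM in siUBA1 replicate 1, and between 100 and 193 TPM in the others. In siUBA1 replicate 3, siNT replicate 3 and siUBA1 replicate 1 the summed interferon-linked TRIM level was 53.8, 35.8 and 42.0 TPM. It was between 29.2 and 34.1 TPM in the others. The leukocyte sum ranged from 103 to 329 TPM in siNT and from 100 to 350 TPM in siUBA1 muscles. Most of it was *Lyz2*, at 304 TPM in siUBA1 replicate 3 and 287 TPM in siNT replicate 3. Of the 5 leukocyte markers tested, 4 were highest in siUBA1 replicate 3 and 1, *Cd68*, in siNT replicate 3. Of the 3 not tested, *Ptprc* was highest in siUBA1 replicate 3, *Cd3e* in siUBA1 replicate 1 and *Cd79a* in siNT replicate 2. *Cd3e* was the only leukocyte marker listed at 0 in a muscle. The 4 fibroblast markers summed to 386 to 845 TPM in siNT and 500 to 1041 TPM in siUBA1 muscles, with all 4 above 0 by log2FC under both scalings and none listed at 0. Of these 4, 3 were higher in all 4 mice, beside 32.2% of all genes. Unblocked, 0 were past an unadjusted p of 0.05, beside 16.0% of all genes higher and 1.98% lower. Blocking by mouse, 2 were higher past it, beside 22.4%. Once median-ratio scaling was added to the block, again 2 were higher, beside 6.96%. The part of these cells in the TRIM differences was not tested.

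Leaving out both muscles of mouse 3 and blocking by mouse, an alternative chosen after seeing the data, gave 3 members higher at an unadjusted p under 0.05 (*Trim12c*, *Trim34a* and *Trim25*), beside 10.4% of all genes tested. With median-ratio scaling as well it gave *Trim34a*, with a log2FC of 0.33 (unadjusted p = 0.0204 from limma, 3 mice), beside 3.87% of all genes. In these fits *Trim21* was not tested.

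**Figure D4:**
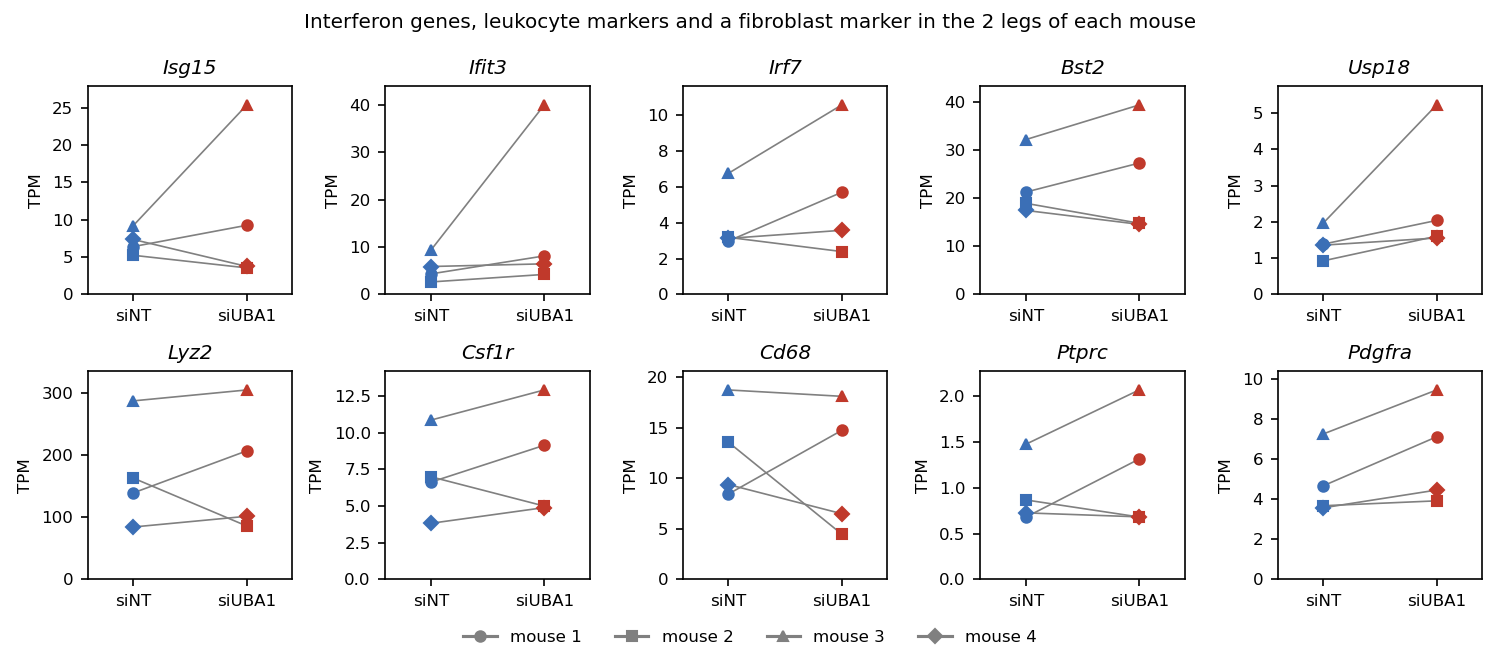
Level in TPM of 5 interferon genes (upper row), 4 leukocyte markers and the fibroblast marker *Pdgfra* (lower row), drawn as siNT in blue and siUBA1 in red with a line for each mouse. *Ifit3* reaches 40.0 TPM and *Isg15* 25.4 TPM in siUBA1 replicate 3 (red triangles), while *Lyz2* and *Csf1r* are high in both legs of mouse 3.

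Outside the interferon-linked group, 4 mRNAs were among the 10 with the lowest unadjusted p, namely *Trim11*, *Trim33*, *Trim3* and *Trim23*. *Trim11*, a ligase and chaperone of misfolded proteins, was at 6.48, 6.28, 6.29 and 5.99 TPM in siNT and at 7.65, 6.59, 7.58 and 7.43 TPM in siUBA1 replicates. The groups did not overlap under either scaling, and the difference was small, with a log2FC of 0.19 (SE 0.0675, unadjusted p = 0.0178, adjusted p = 0.207 from limma) that became 0.09 with median-ratio scaling.

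*Trim33* belongs to the chromatin-bound TIF1 group and controls SMAD-dependent transcription. It was at 2.12, 2.22, 2.61 and 2.71 TPM in siNT and at 2.93, 2.84, 3.18 and 2.85 TPM in siUBA1 replicates. The siUBA1 muscles all lay above the siNT muscles, but the groups overlapped after median-ratio scaling (log2FC 0.21, SE 0.0819, adjusted p = 0.232 from limma, and 0.12 after scaling). Of the other TIF1 members, *Trim24*, a coregulator of nuclear receptors, was at 12.0 ± 0.58 and 12.4 ± 1.13 TPM. *Trim28* was at 18.5 ± 0.407 and 19.7 ± 1.62 TPM (SD, n = 4 each). Both had a log2FC above 0, of 0.04 and 0.09, which turned to -0.07 and -0.03 with median-ratio scaling. *Trim28* overlaps *Chmp2a* on the opposite strand in 67.8% of its exon bases and shared 28.6% of its windows with it. Without strand their reads cannot be told apart. *Trim66*, the last of the group, was at 0.103 TPM and not tested.

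In the NHL-repeat group *Trim3* was tested, a ligase first described in the brain. It was higher in 4 of 4 mice, at 7.52 ± 0.339 TPM in siNT and 8.45 ± 0.638 TPM in siUBA1 muscles (log2FC 0.15, adjusted p = 0.305 from limma, and 0.04 with median-ratio scaling). Its relatives *Trim2* and *Trim71* were at 0.379 and 0.00179 TPM. *Trim23*, which carries a GTPase domain of the ARF family, was at 7.82 ± 1.59 and 9.36 ± 0.868 TPM, with a log2FC of 0.24 (SE 0.123, adjusted p = 0.318 from limma). With median-ratio scaling that was 0.14.

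Across these members, 4 of the 28 tested mRNAs (*Trim21*, *Trim11*, *Trim56* and *Trim33*) were higher in siUBA1 muscles with no overlap between the groups, beside 10.6% of all genes tested. The filter fixed this for *Trim21*, and without it the count is 3 of 27. Likewise 9 of the 28 were higher in all 4 mice, beside 32.2% of all genes, or 8 of 27 without *Trim21*.

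Finally, the mRNAs with the highest levels were examined. *Trim72* was at 147, 149, 166 and 148 TPM in siNT and at 180, 114, 160 and 127 TPM in siUBA1 replicates. It was higher in mouse 1 and lower in the other 3 mice, and the siUBA1 muscles spread on both sides of the siNT muscles. The log2FC was -0.09 (SE 0.135, adjusted p = 0.720 from limma), with a 95% interval of -0.39 to 0.21, and of -0.21 with median-ratio scaling. It turned to 0.02 without siUBA1 replicate 2. *Trim72* has an antisense gene that shares 14.2% of its windows.

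*Trim35* had the same direction in each mouse. It was at 68.2, 72.2, 83.7 and 58.1 TPM in siNT and at 83.6, 46.9, 71.3 and 47.2 TPM in siUBA1 replicates. Again mouse 1 was higher and the other 3 lower (log2FC -0.21, SE 0.195, adjusted p = 0.559 from limma, and -0.33 with median-ratio scaling). When single muscles were omitted, *Trim35* had a log2FC from -0.37 (without siUBA1 replicate 1) to -0.09 (without siUBA1 replicate 2), and it was -0.10 without siUBA1 replicate 4 and -0.13 without siNT replicate 3. *Trim47*, at 7.20 ± 1.52 TPM in siNT and 6.21 ± 1.74 TPM in siUBA1 muscles, had a log2FC of -0.20, or -0.31 with median-ratio scaling. With single muscles omitted it ran from -0.32 (without siUBA1 replicate 1) to -0.05 (without siUBA1 replicate 2), and was -0.09 without siNT replicate 3. It is named because it is, with *Trim72* and *Trim35*, one of the 3 members lower at an unadjusted p under 0.05 once the mouse was blocked and median-ratio scaling applied.

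In that fit 5 members were higher, *Trim21*, *Trim34a*, *Trim12a*, *Trim12c* and *Trim25*, beside 6.96% of all genes, or 4 of 27 without *Trim21*. The 3 lower ones stand beside 8.77% of all genes. With both muscles of mouse 3 left out as well, 0 members were lower at an unadjusted p under 0.05, beside 5.87% of all genes tested, and the unadjusted p was 0.106, 0.0681 and 0.0503 for *Trim72*, *Trim35* and *Trim47*. With all 4 mice the unadjusted p was 0.0423 for *Trim72*, 0.0222 for *Trim35* and 0.0103 for *Trim47*, and the lowest adjusted p of any member in this fit was 0.139 (limma). The summed level of the 9 muscle markers was lowest in siUBA1 replicates 2 and 4, at 107353 and 126468 TPM. Single markers differed from the sum. *Myh1* was at its highest in siUBA1 replicate 2, at 6010 TPM, and *Myh2* in siUBA1 replicate 4, at 329 TPM. The other markers of the list were lowest in siUBA1 replicate 2. The siUBA1 replicates 2 and 4 also had the lowest *Trim72* among siUBA1 muscles and the highest mitochondrial share, at 50.3% and 46.5%. In the blocked fit with median-ratio scaling 4 of the 9 muscle markers and both adipocyte markers were lower at an unadjusted p under 0.05. *Adipoq*, an adipocyte hormone, was at 0.741 and 1.52 TPM in siUBA1 replicates 2 and 4 and between 4.49 and 8.70 TPM in the other muscles. The part of these markers in the *Trim72*, *Trim35* and *Trim47* values was not tested.

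**Figure D5:**
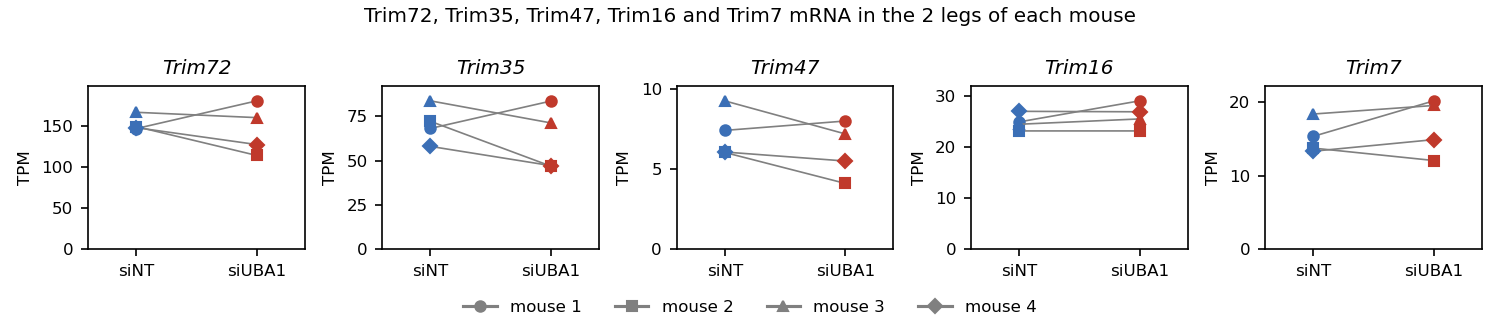
Level in TPM of *Trim72*, *Trim35*, *Trim47*, *Trim16* and *Trim7*, with siNT muscles in blue, siUBA1 muscles in red and a line for each mouse. *Trim72* and *Trim35* are higher with siUBA1 in mouse 1 and lower in mice 2, 3 and 4.

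The remaining abundant members differed between groups by less than the SD of their siUBA1 muscles. *Trim7* was at 15.2 ± 2.28 TPM in siNT and 16.6 ± 3.85 TPM in siUBA1 muscles, and *Trim41* at 15.8 ± 0.972 and 17.4 ± 2.22 TPM. *Trim8*, a regulator of cytokine signaling, was at 13.1 ± 1.05 and 14.5 ± 2.00 TPM. *Trim16* and *Trim44*, both without a RING, were at 24.9 ± 1.59 and 26.1 ± 2.47 TPM and at 13.5 ± 0.629 and 14.1 ± 1.4 TPM. *Trim13*, anchored in the endoplasmic reticulum, was at 10.5 ± 0.444 and 10.8 ± 1.15 TPM (SD, n = 4 for each value). The 95% interval of the log2FC was -0.26 to 0.47 for *Trim7*, -0.12 to 0.25 for *Trim16* and -0.15 to 0.22 for *Trim13*, and all 3 log2FC were above 0 with the deposited TPM and below 0 with median-ratio scaling. *Trim59*, the other membrane-anchored member, was at 0.336 TPM and not tested.

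The genes around the family were tested in the same fit. The 4 muscle ligases left out by name gave 0 at an unadjusted p under 0.05, with *Trim63* (MuRF1) at 243 and 200 TPM and *Trim54* at 372 and 399 TPM in siNT and siUBA1 muscles. *Trim63* was lower in each of the 4 mice, with an unadjusted p of 0.127 unblocked, 0.0314 with the block and 0.00323 with the block and median-ratio scaling (adjusted p = 0.132 in the last, all from limma). With median-ratio scaling *Trim55* was lower past this threshold, with a log2FC of -0.18 (adjusted p = 0.289 from limma). Of 5 TRIM proteins with other names, 4 were tested (*Pml*, *Mid1*, *Mid2* and *Cmya5*) and 0 passed the same threshold. *Pml*, the interferon-induced organizer of nuclear bodies, was highest in siUBA1 replicate 3, at 5.0 TPM, as was *Mid1*, at 5.21 TPM. Of 14 E2 enzymes that can serve TRIM ligases, 13 were tested, and *Ube2e3* was higher at an unadjusted p under 0.05 (8.71 TPM in siNT and 9.96 TPM in siUBA1 muscles, log2FC 0.17, adjusted p = 0.202 from limma). That is 1 of 13, beside 16.0% of all genes. With median-ratio scaling *Ube2e3* was not past this threshold. The 2 lower past it were *Ube2d1* and *Ube2n*, beside 6.18% of all genes.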

How the data were processed

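Total RNA of 8 TA muscles was sequenced as 4 siNT and 4 siUBA1 samples. After quality trimming, the authors used CLC Genomics Workbench to align reads to GRCm39 and to quantify genes, and deposited TPM values. The annotation, the filter and the counting of reads shared by several genes are not given in the sources used here. TPM keep no depth, and counting error could not be computed. Groups came from the sample titles, in which equal numbers mark the 2 legs of a mouse, and replicate numbers from the descriptions, which keep the same pairs. As a check of this pairing, the deviations of same-numbered muscles from their group means correlated across all genes at -0.00037, 0.20, 0.58 and 0.54 for mice 1 to 4.

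A gene was tested if 4 or more of the 8 muscles reached 1 TPM. The test was made on log2(TPM + 1) with limma 3.58.1 in R 4.3.3 (lmFit, eBayes with a trend, no block), with Benjamini-Hochberg adjustment over all 11530 genes. The test was checked on simulated data of 11530 genes, where it called 60.5%, 94.5% and 99.5% of 200 genes changed by 0.5, 1 and 2 on the log2 scale. Whether these percentages hold for the muscles measured here was not tested. In the muscles, *Uba1* had a log2FC of -1.98 and an adjusted p of 0.0527 (limma). Exact permutation tests were two-sided. The alternatives were a pseudocount of 0.1, no filter, a mean of 5 TPM or more, scaling by median ratios or by quantiles, removal of mitochondrial genes before rescaling, blocking by mouse, the Kruskal-Wallis test and omission of each muscle in turn. Blocking joined to quantile normalization, and omission of mouse 3, were added after seeing the data.

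The genes named were the 10 with the lowest unadjusted p, the 8 with the highest mean TPM, the 5 with the largest log2FC, the 3 highest below the filter and the tested members of lists by role. Of the other genes, *Uba1* and those at an unadjusted p under 0.05 were named, and *Ifit3*, *Isg15*, *Pml*, *Mid1*, *Trim54*, *Trim63*, *Trim55*, *Ube2d1*, *Ube2n*, *Trim47* and the markers and interferon genes plotted were picked with their values in view. The members and lists were chosen with earlier results of these data known. Gene positions are from GENCODE M39 and promoters from RefSeq (GRCm38.p6), placed on GRCm39 by exact match.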

Additional observations from a re-analysis of the deposited data

Results flagged for a closer look

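In 3 of the 58 groups of 4 muscles checked, over the 28 TRIM mRNAs tested and *Uba1*, 1 muscle stood apart from the other 3 by Dixon's test. Chance alone flags about 1 in 20 groups, or 2.9 of 58. *Trim21* was at 0.464 TPM in siNT replicate 4, below the other siNT muscles. *Trim68* was at 3.92 TPM in siUBA1 replicate 1, above the other siUBA1 muscles, which were nearly equal. *Trim72* was at 166 TPM in siNT replicate 3, above the other siNT muscles.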

How the results depend on the processing

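The number of TRIM mRNAs at an adjusted p under 0.05 was 0 under every alternative. The number higher at an unadjusted p under 0.05 (7 of 28, beside 16.0% of all genes) was 1 of 17 among genes at a mean of 5 TPM or above. It was 4 under median-ratio scaling, beside 4.42% of all genes, and 4 under quantile normalization, beside 513 of 11530 genes. With each muscle left out in turn it was 1 to 9. With the replicate block it was 10, beside 22.4% of all genes. With the block and both muscles of mouse 3 left out it was 3, beside 10.4%, or 1 with median-ratio scaling too, beside 3.87%. The number lower (0) became 3 when the replicate block was joined to either median-ratio scaling or quantile normalization, and stayed 0 with each muscle left out. It was also 0 with the block, median-ratio scaling and mouse 3 left out. Of all genes, 1.98% were lower in the main fit and 8.77% with the block and median-ratio scaling. With mouse 3 left out of the latter, 5.87% were. The number above 0 by log2FC (24 of 28, beside 81.8% of all genes) was 14 of 17 at a mean of 5 TPM or above. Without a filter it was 42, out of all members above 0 TPM in any muscle. It was 15 of 28 after median-ratio scaling, with or without the replicate block, beside 50.7% of all genes. With each muscle left out it was 21 to 24, beside 72.7% to 87.8% of all genes. The log2FC of *Uba1* (-1.98) passed an adjusted p of 0.05 at -1.98 with a mean of 5 TPM or above and with the replicate block. It also passed at -2.09 with median-ratio scaling (with and without the block), at -2.06 with quantile normalization (with and without the block), and at -2.0 without mitochondrial genes. With each muscle left out it was -2.18 to -1.64, and it passed without siUBA1 replicate 2 or 4.

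Among single members, small log2FC turned sign in 45 cases. Under median-ratio scaling, with and without the block, these were *Trim44* -0.062, *Trim24* -0.071, *Trim28* -0.030, *Trim7* -0.0073, *Trim16* -0.051, *Trim37* -0.027, *Trim27* -0.014, *Trim13* -0.077 and *Trim39* -0.038. Under quantile normalization, with and without the block, they were *Trim44* -0.033, *Trim24* -0.055, *Trim28* -0.0042, *Trim16* -0.011, *Trim37* -0.057, *Trim27* -0.026, *Trim13* -0.063 and *Trim39* -0.061. Under median-ratio scaling with the block and mouse 3 left out, they were *Trim44* -0.064, *Trim24* -0.049, *Trim28* -0.060, *Trim41* -0.0012, *Trim16* -0.031, *Trim13* -0.049 and *Trim39* -0.017. With each muscle left out in turn, *Trim24* ranged from -0.013 to 0.078 and *Trim13* from -0.012 to 0.10 (below 0 without siUBA1 replicate 1), *Trim72* from -0.20 to 0.019 (above 0 without siUBA1 replicate 2) and *Trim65* from -0.14 to 0.021 (above 0 without siUBA1 replicate 4). Depth is unknown, and the cause of these changes was not tested.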
